A study of Drosophila melanogaster with 11 samples.

Results

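The cytosolic ribosomal protein genes encode the proteins of the large and the small subunit of the ribosome outside mitochondria. Members were chosen by symbol from the count table, as every gene whose symbol begins with *RpL* or *RpS* and a digit or with *RpLP*, plus *sta*. The rule reads symbols and no values, but the gene set was proposed with earlier results of these data known. The table holds 93 of them among 17771 genes, 54 for the large and 39 for the small subunit. All libraries came from Kc167 (Kc) cells, an established *Drosophila* embryonic cell line with hemocyte features, in which RNA made during 1 h was labeled with 0.2 mM 5-ethynyl uridine (EU), captured and sequenced (nascent EU RNA-seq, neuRNA-seq). Mock cells were electroporated without RNA and the others with double-stranded RNA (dsRNA), and all were labeled 5 days later. The dsRNA amount was 20 µg for *M1BP*, 12 µg for *Cp190* and 5 µg for *mod(mdg4)*, the last aimed at the isoform Mod(mdg4)67.2. As described, the groups share the cell line and differ in the dsRNA, and a single dsRNA amount and time was used for each target. Mock cells had no dsRNA and the amounts differed between targets. The target therefore cannot be told apart from the presence or the amount of dsRNA. M1BP is a zinc-finger activator that binds the Motif 1 core promoter element, and CP190 and Mod(mdg4)67.2 are chromatin insulator proteins. The comparisons ask which genes change in nascent RNA when each factor is depleted.

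A ribosome needs its proteins in matched amounts, and their genes are among the most active of a growing cell. In *Drosophila* these genes are short, many start within a pyrimidine-rich TCT initiator instead of a TATA box, and many carry small nucleolar RNA (snoRNA) genes in their introns, whose products guide the modification of ribosomal RNA. Flies that lack 1 copy of many of these genes are the *Minute* mutants, which grow slowly and have thin bristles. Several of the proteins have a paralog, and some of the paralogs are known from the germline or, under names that end in -like, as relatives of ribosome assembly factors of yeast and human cells.

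Each library with a column heading of its own was used. These were 4 mock libraries, replicates 2 and 3 of *M1BP* knockdown, replicates 1 and 2 of *mod(mdg4)* knockdown and a library labelled *Cp190* knockdown replicate 1. Total counts were 24944604 to 29680851 in mock and 7462623 to 13181160 in the other libraries, so a floor of 3 counts stands for 0.101 to 0.402 counts per 1000000 (CPM) before scaling. All other CPM values are scaled between libraries by TMM (trimmed mean of M-values) factors. *M1BP* itself measured 44.2 to 54.5 CPM in mock and 21.5 and 31.8 CPM after its knockdown, with an adjusted p of 0.014. The *Cp190* gene measured 4373 CPM in the library labelled *Cp190* knockdown and 339 to 460.3 CPM in mock, so this reading does not show the knockdown. The source of these counts was not tested. By western blot the study found less CP190 protein after *Cp190* knockdown. *mod(mdg4)* was not analysed here. The hemocyte factor gene *srp* was high in all 9 libraries, at 1807 to 5648 CPM, whereas the hemocyte receptor genes *eater* and *NimC1* stayed at or below 2.62 CPM. Over the 7 hemocyte genes examined the summed level was 4229 to 6340.2 CPM in mock, 3745 and 4199.8 CPM after *M1BP* knockdown and 3075 and 4813 CPM after *mod(mdg4)* knockdown. Its genes moved in both directions after *M1BP* knockdown. *Pxn* measured 602 and 932 CPM against 217 to 297 CPM in mock, and *Hml* 515 and 373 CPM against 264 to 277 CPM. In contrast, *srp* measured 2936 and 2308 CPM against 3458 to 5648 CPM in mock, *Col4a1* 125 and 113 CPM against 155 to 198 CPM and *vkg* 18.5 and 18.5 CPM against 30.6 to 51.5 CPM. The part of these shifts in the results was not tested. The study calls its RNA-seq replicates biological, and the labels do not describe how the cultures were separated.

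Motif 1 is the element that M1BP reads, and the study's list of Motif 1 matches, of which a part is held here, has matches close to the annotated start of members. Those within 100 bases of a start are shown because they are the sites by which M1BP could be placed at these genes, with capitals for the 9 positions aligned with the motif core ggtcacact. Positions refer to dm6, the distances of matches may be off by 1 base, and negative distances lie before the start.
RpLP1: ggcgcGGTCACACTg
RpL7: caaacGGTCACACTg
RpS10b: ggtccGGCCACACTg
RpLP0: ggtagGGTCACTCTg
RpL13A: tatacGGTCACATTg
RpL37A: gcggcGGTCACACTt
*RpLP1* starts at position 419952 of chromosome arm 2L and the match begins at -23 on the strand of the gene. *RpL7* starts at 10201004 on 2L, with the match at -16 on the opposite strand. *RpS10b* starts at 19598031 on X, with the match at -32 on the strand of the gene. *RpLP0* starts at 22075867 on 3L, with the match at -35 on the opposite strand. *RpL13A* starts at 5624474 on 3R, with the match at -91 on the opposite strand. *RpL37A* starts at 5070957 on 2L, and there the match lies inside the gene at 28. In *RpLP1*, *RpL7* and *RpL37A* the core letters are complete, and in the other 3 genes 1 core letter differs. A member that is not shown may still have a match, since the list was held only in part. In addition, only windows centred exactly on an annotated start were read, and all genes shown lie on the plus strand. *RpL30*, on the minus strand, is not shown, although the study describes its promoter as containing Motif 1.

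In mock cells the ribosomal protein genes together took 3.76%, 3.46%, 3.75% and 3.49% of all gene counts, a mean of 3.61% ± 0.163 (SD, n = 4). After *M1BP* knockdown they took 4.90% and 3.79%, and after *mod(mdg4)* knockdown 2.11% and 3.24%. The library labelled *Cp190* knockdown had 5.52%. Both *M1BP* knockdown libraries lay above and both *mod(mdg4)* knockdown libraries below all 4 mock libraries, but *M1BP* replicate 3 exceeded the highest mock library only in the second decimal. A share is relative, so more RNA of these genes and less RNA of others cannot be told apart. Likewise, less RNA per cell and fewer cells cannot be told apart in bulk libraries.

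**Figure D1:**
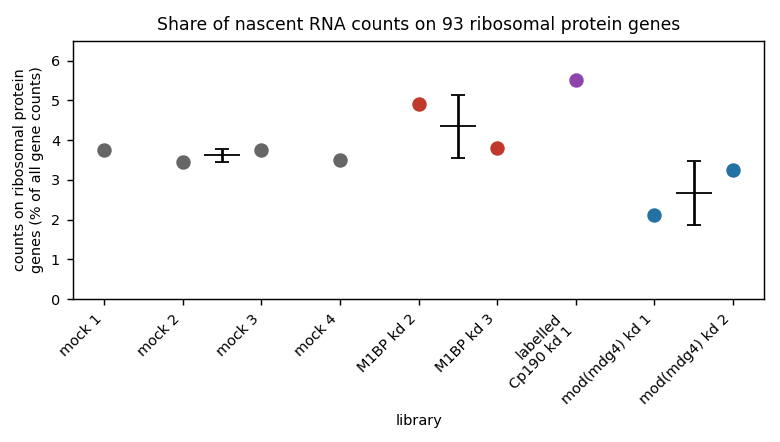
Percent of all gene counts that fell on the 93 ribosomal protein genes, with 1 point per library and, for groups with replicates, the mean and SD in black. The 4 mock libraries sit between 3.46% and 3.76%, the *M1BP* knockdown libraries at 4.90% and 3.79%, and the *mod(mdg4)* knockdown libraries at 2.11% and 3.24%.

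Most members were strongly expressed in mock cells. Of the 93, 83 had at least 100 counts on average in mock, and 10 had fewer. Levels between genes are compared as CPM per kilobase (kb) of gene span, introns included, since counts were made over whole genes. On that scale the 83 members had a median level of 279, against 14.4 over the 6779 genes of the table with at least 100 counts, and 82 of the 83 lay above that median. The median span was 1361 bases over these members and 2936 bases over those genes. A long span lowers this measure, and the part of span in the gap was not tested. In mean mock CPM without division by span, *RpL5* (1276) and *RpL4* (1117) exceeded *RpL21* (1070). *RpL21*, a large subunit gene, had the highest mean with 1399 ± 247 CPM per kb (SD, n = 4). *RpL41*, which encodes a very short basic peptide, followed with 963 ± 197, and the stalk gene *RpLP1* with 857 ± 123. The SDs of *RpL21* and *RpL41* overlap, as do those of *RpL41* and *RpLP1*, so the order within each of these pairs is not resolved. At the low end of the 83 stood *RpS15Ab* with 10.9 ± 3.10 CPM per kb and *RpL38* with 33.3 ± 8.02.

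**Figure D2:**
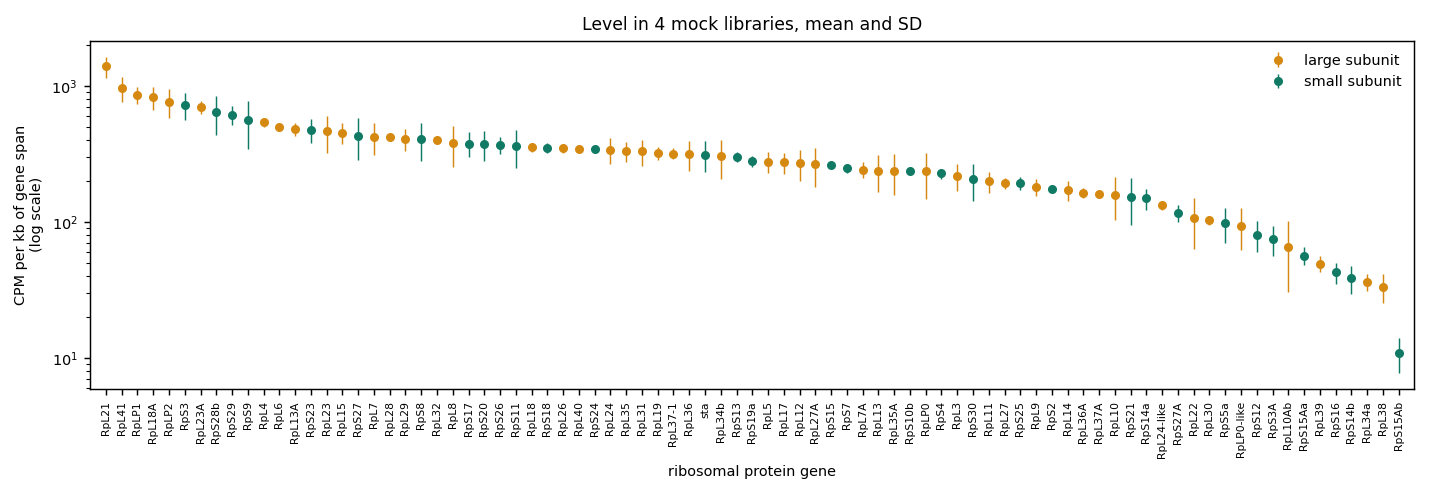
Mock level of the 83 ribosomal protein genes with at least 100 counts, as mean CPM per kb of gene span on a log axis with the SD over 4 libraries, ordered from highest to lowest and coloured by subunit. Levels run from 1399 for *RpL21* to 10.9 for *RpS15Ab*, and genes of both subunits are mixed along the order.

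The 10 members with few counts were *RpL7-like*, *RpS6*, *RpS28a*, *RpS28-like*, *RpL10Aa*, *RpL22-like*, *RpL37-2*, *RpS5b*, *RpS10a* and *RpS19b*. *RpS6* encodes the small subunit protein phosphorylated by S6 kinase and has no paralog among the members, yet it had 0 counts in all 9 libraries. Of its span (X, 7899624 to 7901331), 98.3% is overlapped on the same strand by the annotated gene *CR33222* and a snoRNA gene, which leaves 29 bases free. *CR33222* had 0 to 9 counts. Reads that touch more than 1 gene are left out under the counting the authors describe, so the 0 counts say nothing about the level of *RpS6* RNA. *RpL7-like*, whose span is covered to 98.9% by *CG34164*, had 0 counts as well. In all, 35 members overlap another gene on their strand, and 29 of them hold 72 snoRNA genes. *RpS5a* holds 14 snoRNA genes over 42.4% of its span, *RpS27A* overlaps *Ip259* over 59.8%, and *RpL22* is overlapped over 52.2%. Levels per kb of these genes are therefore lower limits, whereas the same bases were left out in every library.

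The mock libraries themselves fell into pairs over these genes. For *RpS9*, chosen as an example after its values were seen, the first 2 mock replicates had 651 and 648 CPM and the last 2 had 1383 and 1201 CPM. *RpL10Ab* went the other way, with 135 and 126 CPM against 43.1 and 52.6 CPM. *RpL30* was even across them, at 134, 143, 122 and 124 CPM. Over the 83 members, log2 levels centred on each gene's mean over all 9 libraries correlated with r = 0.92 between mock replicates 1 and 2 and with r = 0.92 between replicates 3 and 4, but with r = -0.65 between replicates 1 and 3. The profile of *mod(mdg4)* replicate 1 correlated with that of mock replicate 3 (r = 0.81), the 2 *M1BP* knockdown libraries with each other (r = 0.62), and the 2 *mod(mdg4)* knockdown libraries hardly did (r = 0.08). Both *M1BP* knockdown libraries resembled mock replicates 1 and 2 (r from 0.38 to 0.52) and ran opposite to mock replicates 3 and 4 (r from -0.73 to -0.68) and to *mod(mdg4)* replicate 1 (r = -0.78 and -0.75). The contrast of *M1BP* knockdown with *mod(mdg4)* replicate 1 thus runs in part along the split between the mock libraries. The part of that split in it was not tested. In *mod(mdg4)* replicate 2 r was -0.36, -0.40, -0.19 and -0.27 with mock replicates 1 to 4. With the *M1BP* knockdown libraries it was -0.18 and -0.20. Centring on the mean of the same 9 libraries moves such correlations toward negative values. These values are across genes that share their library and its depth, and they are given as a description. The labels name no batch. Per the methods, the authors normalized independent experiments separately, but it is not said which libraries belong to each. Here all mock libraries entered the main fits together, with no term for the split. The spread of a member over the mock libraries therefore includes this split.

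After *M1BP* knockdown, ribosomal protein genes were mostly higher than in mock cells. Of the 87 members tested, 19 were higher and 1 was lower at an adjusted p below 0.05, beside 16.5% of all 9511 genes tested that were higher and 11.5% that were lower. The median log2 fold change was 0.38 over the members and -0.03 over all genes, and 80 of the 87 members had values above 0. Without *M1BP* replicate 2 the medians were 0.14 and -0.06, and without replicate 3 they were 0.55 and -0.05. Over the 83 members with at least 100 counts in mock, replicate 2 had 65 above and 1 below all mock libraries. Replicate 3 had 28 above and 7 below. For 29 members both knockdown libraries exceeded every mock library, as they did for 23.3% of all genes, and for 1 member both were below, as for 25.8% of all genes. At 21.8%, the share of members called higher was only a little over the share among all genes, whereas few members were called lower.

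*RpL30*, a large subunit gene on 2L (19008031 to 19009306) whose promoter the study used in reporters, had the largest rise. It measured 134, 143, 122 and 124 CPM in mock and 296 and 253 CPM after *M1BP* knockdown, without overlap between the groups. The log2 fold change was 1.10 ± 0.13 (SE), a 2.14-fold rise with an adjusted p of 0.00062. In the study's plasmid reporters, luciferase driven by the *RpL30* and *RpLP1* promoters fell after *M1BP* knockdown. It also fell after *Cp190* knockdown, and *mod(mdg4)* knockdown did not change it. With Motif 1 mutated, the study still lists a difference between mock and *M1BP* knockdown. Enzyme activity from a plasmid and nascent RNA of the gene itself are unlike measures, and their difference was not tested. *RpL39*, for a small basic protein at the exit tunnel of the large subunit, rose by 1.00 ± 0.22 on the log2 scale (adjusted p = 0.0114), from 33.8, 29.3, 25.9 and 25.2 CPM to 70.3 and 41.4 CPM. *RpS30*, whose product is made as a fusion with a ubiquitin-like protein, rose by 0.95 ± 0.26 (adjusted p = 0.0247). It measured 248, 223, 148 and 129 CPM in mock and 411 and 299 CPM after knockdown. *RpL27* rose by 0.85 ± 0.14 (adjusted p = 0.00331), from 313, 254, 266 and 270.4 CPM to 536 and 443 CPM. In all 4 genes replicate 2 was higher than replicate 3, which held for 82 of the 83 expressed members.

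The other members called higher with at least 100 counts had log2 fold changes from 0.51 (*RpS19a*) to 0.84 (*RpS16* and *RpS14b*). They include *RpS27A*, a fusion of ubiquitin with a small subunit protein, at 0.56 ± 0.18 (adjusted p = 0.0442). *RpS28a*, a copy of *RpS28b*, is also among the 19, with 17 and 5 counts in the *M1BP* knockdown libraries and 0 in all others, and no fold is given for it. Among the members with a Motif 1 match shown above, only *RpS10b* passed the threshold, and none was called lower. *RpLP1*, the other gene whose promoter was used in reporters, measured 915, 832, 718 and 665 CPM in mock and 804 and 697 CPM after knockdown, with overlapping groups and a log2 fold change of -0.03 ± 0.16 (adjusted p = 0.90). *RpS10b* was called higher at 0.59 ± 0.14 (adjusted p = 0.0149), and *RpL7*, *RpL13A*, *RpL37A* and *RpLP0* had log2 fold changes of 0.29, 0.31, 0.24 and 0.74 with adjusted p from 0.0933 to 0.39.

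The only member called lower was *RpLP0-like*, which despite its name is related to an assembly factor of the large subunit known from yeast. It measured 71.3, 71.9, 137 and 122 CPM in mock and 57.3 and 39.4 CPM in the knockdown, and its log2 fold change was -1.03 ± 0.31 (adjusted p = 0.037). The call was lost without mock replicate 3 (adjusted p = 0.062), without mock replicate 4 (0.084) or without *M1BP* replicate 3 (0.17), and *RpLP0-like* fell by 0.53 against mock replicates 1 and 2 alone (adjusted p = 0.13).

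The number of members called higher depended on single libraries. It was 6 without *M1BP* replicate 2 and 35 without *M1BP* replicate 3, and 12 without mock replicate 2 and 9 without mock replicate 4. Against mock replicates 1 and 2 alone it was 13, and against replicates 3 and 4 alone it was 20. *RpL30* passed the threshold under every alternative tried. *RpL39* lost it without *M1BP* replicate 2 (adjusted p = 0.082) and against mock replicates 1 and 2 alone (0.090). *RpS30* lost it without *M1BP* replicate 2 (adjusted p = 0.16), without mock replicate 4 (0.051), against mock replicates 1 and 2 alone (0.074), when scaled by library size alone (0.055) and with all libraries in 1 model (0.065), and *RpS27A* without any 1 of mock replicates 1, 2 and 4 or *M1BP* replicate 2 (adjusted p from 0.11 to 0.30). Of the large subunit genes 8 of 50 and of the small subunit genes 11 of 37 were called higher, with median log2 fold changes of 0.38 and 0.43.

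After *mod(mdg4)* knockdown the ribosomal protein genes were mostly lower. Of 86 members tested, 10 were lower and 0 higher at an adjusted p below 0.05, beside 0.408% of all 9066 genes tested that were lower and 0.32% that were higher. At an unadjusted p below 0.05 edgeR placed 2 members higher and 45 lower, and DESeq2 called 1 member higher and 34 lower after adjustment. The median log2 fold change was -0.65 over the members and 0.00 over all genes. Both knockdown libraries lay below all mock libraries for 46 members, where 17.7% of all genes did, and above them for 1 member, where 13.3% did.

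*RpS4*, a small subunit gene on 3L, had the largest fall. It measured 617, 560.3, 569 and 504 CPM in mock and 203 and 252 CPM after *mod(mdg4)* knockdown, a log2 fold change of -1.28 ± 0.16 (adjusted p = 0.0225). *RpS13* fell by 1.26 on the log2 scale, from 379.8, 317, 387 and 346 CPM to 135 and 159.7 CPM (adjusted p = 0.0225). *RpL6* fell by 1.07, from 689, 711, 741 and 678 CPM to 307 and 350.4 CPM (adjusted p = 0.0225). *RpL4*, which reaches into the peptide exit tunnel, fell by 1.02, from 1207, 1132, 1114 and 1015 CPM to 459 and 620.4 CPM (adjusted p = 0.0462). In these 4 genes the groups were far apart and the mock libraries close together. The other 6 called lower were *RpL37-1*, *RpL28*, *RpS24*, *RpL18*, *RpL27* and *RpL32*, with log2 fold changes from -0.90 to -0.79.

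The calls after *mod(mdg4)* knockdown were fragile, whereas the direction of the list was not. Without any 1 of the 4 mock libraries, 0 members were called lower, and the same held against either pair of mock libraries, although the median of the members stayed between -0.68 and -0.55. For *RpS4* the adjusted p was 0.08 to 0.12 when 1 mock library was left out, with log2 fold changes from -1.33 to -1.23. Without *mod(mdg4)* replicate 1, 16 members were lower and 2 higher, and without replicate 2, 13 were lower and 0 higher. Of the large subunit genes 7 of 50 and of the small subunit genes 3 of 36 were called lower, with medians of -0.74 and -0.61.

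Of the 86 members tested after *mod(mdg4)* knockdown, 78 had log2 fold changes below 0 and 8 above. *RpL38* and *RpL23* were among the 8, and *RpL23* was chosen after its values were seen. It measured 483, 448, 850.5 and 651 CPM in mock, 549 CPM in *mod(mdg4)* replicate 1 and 1664 CPM in replicate 2. *RpL38*, mutations of which give a classic *Minute*, measured 29.3, 27.5, 45.2 and 40.6 CPM in mock and 44.5 and 178 CPM after knockdown. Both genes were high in replicate 2 alone, and neither passed the test (adjusted p = 0.274 and 0.106). Over the 83 expressed members, replicate 2 had 9 above and 53 below all mock libraries, and replicate 1 had 0 above and 70 below.

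**Figure D3:**
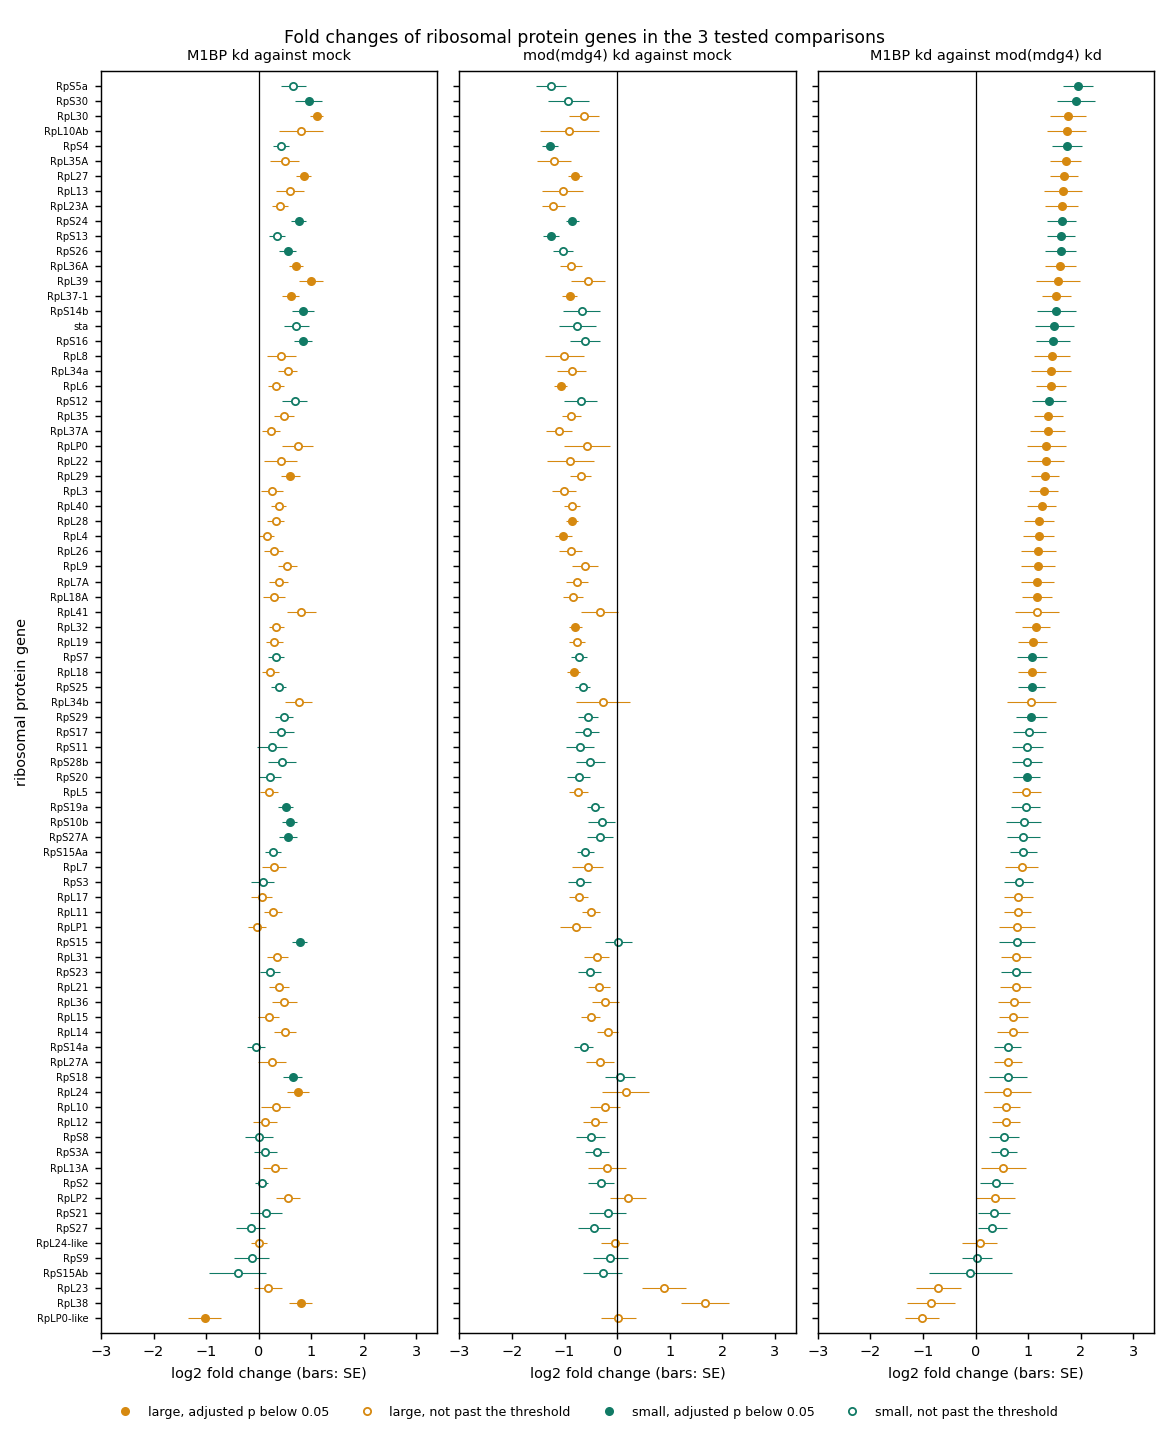
Log2 fold changes with standard errors of the 83 ribosomal protein genes with at least 100 counts in mock, for *M1BP* knockdown against mock, *mod(mdg4)* knockdown against mock and *M1BP* against *mod(mdg4)* knockdown, coloured by subunit and filled where the adjusted p was below 0.05. Most genes lie right of 0 in the panels that show *M1BP* knockdown and left of it in the panel of *mod(mdg4)* knockdown against mock, with *RpLP0-like*, *RpL38* and *RpL23* at the bottom of the order.

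The direct comparison of *M1BP* with *mod(mdg4)* knockdown asks whether the factors differ from each other, and it called the most members of the 3 comparisons. Of 85 members tested, 42 were higher after *M1BP* knockdown and 0 lower, beside 4.84% of all 8757 genes tested that were higher and 1.68% that were lower. At an unadjusted p below 0.05 edgeR placed 67 members higher and 1 lower, and DESeq2 called 59 higher and 0 lower. The median log2 fold change was 1.06 over the members and -0.02 over all genes, and those called ranged from 0.97 (*RpS20*) to 1.95 (*RpS5a*). For 71 members both *M1BP* knockdown libraries exceeded both *mod(mdg4)* knockdown libraries, as for 25% of all genes, and for 1 member both were below, as for 28.1%. The members called include 28 of 50 large and 14 of 35 small subunit genes.

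*RpS5a* measured 742 and 678 CPM after *M1BP* knockdown and 159 and 217 CPM after *mod(mdg4)* knockdown, a log2 difference of 1.95 ± 0.28 (adjusted p = 0.000893). Its mock levels of 616, 526, 341 and 354 CPM lay between both groups. *RpS30* followed with 411 and 299 against 59.2 and 133 CPM, a difference of 1.90 ± 0.36 (adjusted p = 0.00518). *RpL30* had 296 and 253 against 52.1 and 113 CPM, a difference of 1.76 ± 0.34 (adjusted p = 0.00612). *RpL10Ab* had 173 and 133 against 26.9 and 66.4 CPM, a difference of 1.74 ± 0.37 (adjusted p = 0.0119). In these genes *mod(mdg4)* replicate 1 was the lowest of all 9 libraries. The calls of *RpS5a*, *RpS30* and *RpL30* held under every alternative of this comparison, and that of *RpL10Ab* was lost with library size as the only scaling (adjusted p = 0.06).

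The count of 42 fell to 17 without *M1BP* replicate 2 and to 21 without *mod(mdg4)* replicate 1. Scaling by library size alone gave 16 higher and 1 lower. It also moved the median of all genes to -0.27, and the median of the members stayed 1.07 above that of all genes, against 1.08 with the main scaling. Each knockdown was set against the same mock libraries in the comparisons above, whereas this one uses none of them.

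Ubiquitin fusions and stalk proteins were looked at as groups by role. *RpL40*, the other ubiquitin fusion, measured 314, 318, 286 and 276 CPM in mock, 428 and 334 CPM after *M1BP* knockdown and 142 and 183 CPM after *mod(mdg4)* knockdown. It passed the test only in the direct comparison, with a log2 difference of 1.26 ± 0.27 (adjusted p = 0.0125). The stalk recruits translation factors and is built from RpLP0, RpLP1 and RpLP2. *RpLP0* differed by 1.34 ± 0.37 in the direct comparison (adjusted p = 0.0468), with 719 and 533 CPM after *M1BP* and 145 and 356 CPM after *mod(mdg4)* knockdown. *RpLP2* measured 787 and 543 against 308 and 731 CPM, with a difference of 0.38 ± 0.37 (adjusted p = 0.62). For *RpLP1* the direct difference was 0.78 ± 0.34 (adjusted p = 0.20), so the stalk genes were not called together. *sta*, which encodes the small subunit protein RpSA, measured 639, 588, 377 and 416 CPM in mock, 969 and 659 CPM after *M1BP* knockdown and 177 and 409 CPM after *mod(mdg4)* knockdown. Its direct difference was 1.49 ± 0.37 (adjusted p = 0.0284).

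**Figure D4:**
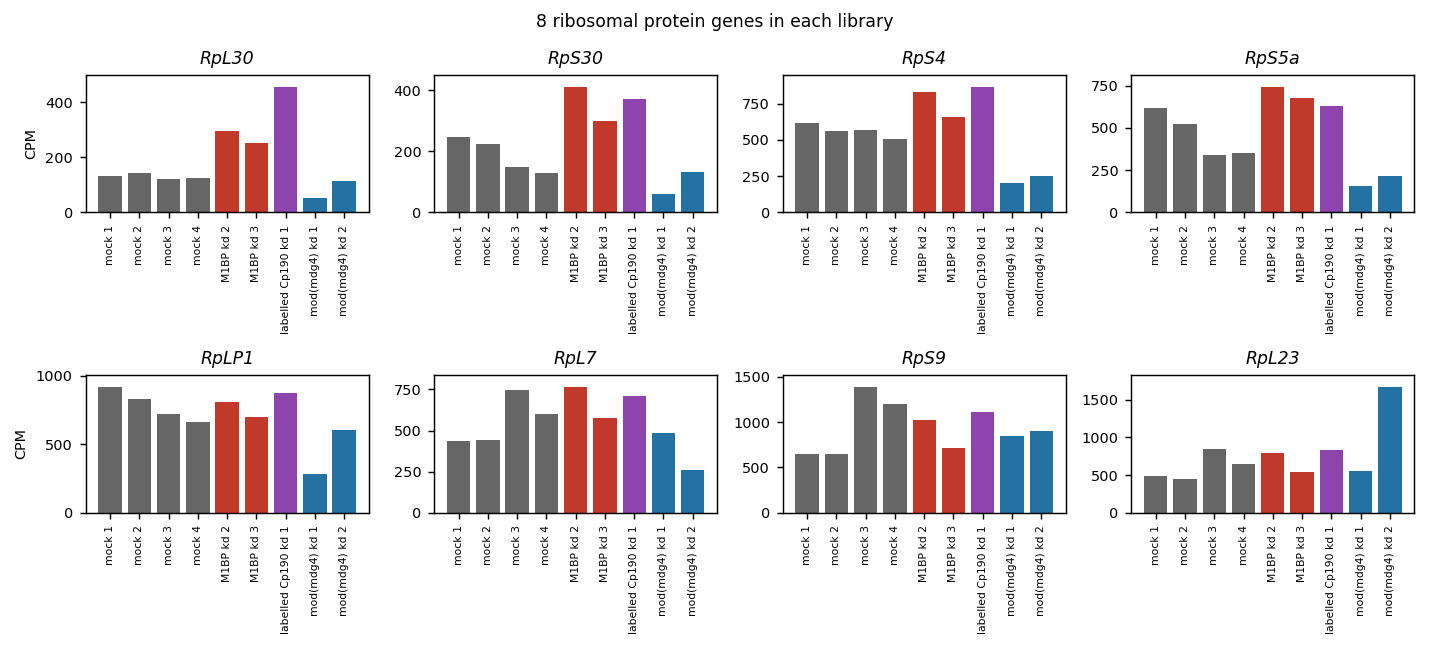
CPM of 8 ribosomal protein genes in each library, with bars from 0 and colours by group. *RpL30* is even at 122 to 143 CPM in mock and reaches 296 and 253 CPM after *M1BP* knockdown, *RpS4* falls to 203 and 252 CPM after *mod(mdg4)* knockdown, and *RpL23* reaches 1664 CPM in *mod(mdg4)* replicate 2 alone.

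A single library is labelled *Cp190* knockdown, so its values are set against the mock range without a test. Of 84 members with at least 10 counts in every mock library, 65 lay above all mock libraries and 0 below, where 31.3% of all 8338 such genes lay above and 50.4% below. The median log2 ratio to the mock mean was 0.57 over the members and -0.23 over all genes. *RpL30* was furthest above with 456 CPM against 122 to 143 CPM in mock, a log2 ratio of 1.80. *RpL36A* had 435 CPM against 153 to 187 CPM, *RpL38* 82.7 against 27.5 to 45.2 CPM and *RpL39* 65.6 against 25.2 to 33.8 CPM. Of the large subunit genes 40 of 50 and of the small subunit genes 25 of 34 were above the mock range. Given the high *Cp190* reading of this library, no direction is drawn for depletion of CP190.

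Large and small subunit genes differed little as groups. The median log2 CPM per kb of the large minus that of the small subunit genes was 0.22 ± 0.06 (SD, n = 4) in mock. It was 0.11 and 0.01 in the *M1BP* knockdown libraries, 0.29 and -0.03 in the *mod(mdg4)* knockdown libraries and -0.12 in the library labelled *Cp190* knockdown. The *M1BP* values lay below all mock values (0.16 to 0.29), and the *mod(mdg4)* values fell on both sides of the mock mean. Of the expressed genes 16 of 50 large and 12 of 33 small subunit genes hold snoRNA genes.

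Paralogs were very unequal in most pairs. In Kc cells *RpS5a* carried nearly all counts of its pair, and *RpS5b*, known from the female germline, had 0 to 43 counts per library and 0.177% of the counts of the pair over all libraries. *RpS19b* and *RpS10a*, also known from the germline, had 0 to 58 and 0 to 22 counts, or 0.438% and 0.154% of their pairs. *RpL22-like* had at most 4, *RpL37-2* at most 4, *RpS28-like* at most 3 and *RpS28a* at most 17 counts. *RpL10Aa* had 31 counts in the library labelled *Cp190* knockdown and 0 or 1 in all others. *RpS5b* was also highest there, with 43 counts or 4.50 CPM against 0.200 to 1.21 CPM in mock. Among the germline genes examined, *bam* measured 2.93 CPM, *piwi* 2.51 CPM and *zpg* 1.15 CPM in that library, against at most 1.00, 0.726 and 0.0383 CPM in mock, while *vas* had 0. Their summed level with *aub* was 34.5 CPM there, 27.1 to 30.1 CPM in mock, 17.5 and 19.9 CPM after *M1BP* knockdown and 28.6 and 33.5 CPM after *mod(mdg4)* knockdown, and its part in the paralog counts was not tested.

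In 5 pairs both copies were expressed. *RpS14a* and *RpS14b* are neighbours on X that encode the same protein, and *RpS14b* had 21.5% of the counts of the pair. The log2 ratio of *RpS14a* to *RpS14b* per kb was 1.39, 1.61, 2.65 and 2.20 in mock, 1.09 and 1.04 after *M1BP* knockdown, and 2.57 and 1.62 after *mod(mdg4)* knockdown. Both *M1BP* knockdown ratios lay below all mock ratios. *RpS14b* rose after *M1BP* knockdown by 0.84 ± 0.21 on the log2 scale (adjusted p = 0.0182), from 43.1, 38.8, 26.2 and 29.4 CPM to 63.4 and 57.2 CPM, while *RpS14a* had a fold change of -0.05 (adjusted p = 0.86). The difference between the copies was not tested. Reads that fit both copies cannot be assigned, so the ratio rests on the bases in which they differ.

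*RpL24* and *RpL24-like* are not copies in function, since RpL24-like is related to an assembly factor of the large subunit known from yeast. *RpL24* rose after *M1BP* knockdown by 0.74 ± 0.21 (adjusted p = 0.0289), from 607, 553, 391 and 409 CPM to 926 and 680.0 CPM. *RpL24-like* had a fold change of 0.00 ± 0.16, with 106, 103, 120.0 and 119 CPM in mock and 128 and 92.0 CPM after knockdown. The ratio of *RpL24* to its relative was 2.07 and 2.11 in the *M1BP* knockdown libraries and 0.93 to 1.74 in mock on the log2 scale. The same held more strongly for *RpLP0* and *RpLP0-like*, with log2 ratios of 3.05 and 3.16 against 2.32, 2.09, 0.28 and 0.56 in mock. In *mod(mdg4)* replicate 1 *RpLP0* was below its relative, with a log2 ratio of -0.44, and in replicate 2 the ratio was 1.71. *RpL34b* exceeded *RpL34a* by 2.79 to 3.29 in mock and by 2.81 to 3.95 in the other libraries. *RpS15Aa* exceeded *RpS15Ab* by 2.18 to 2.75 in mock and by 1.56 to 4.57 elsewhere.

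**Figure D5:**
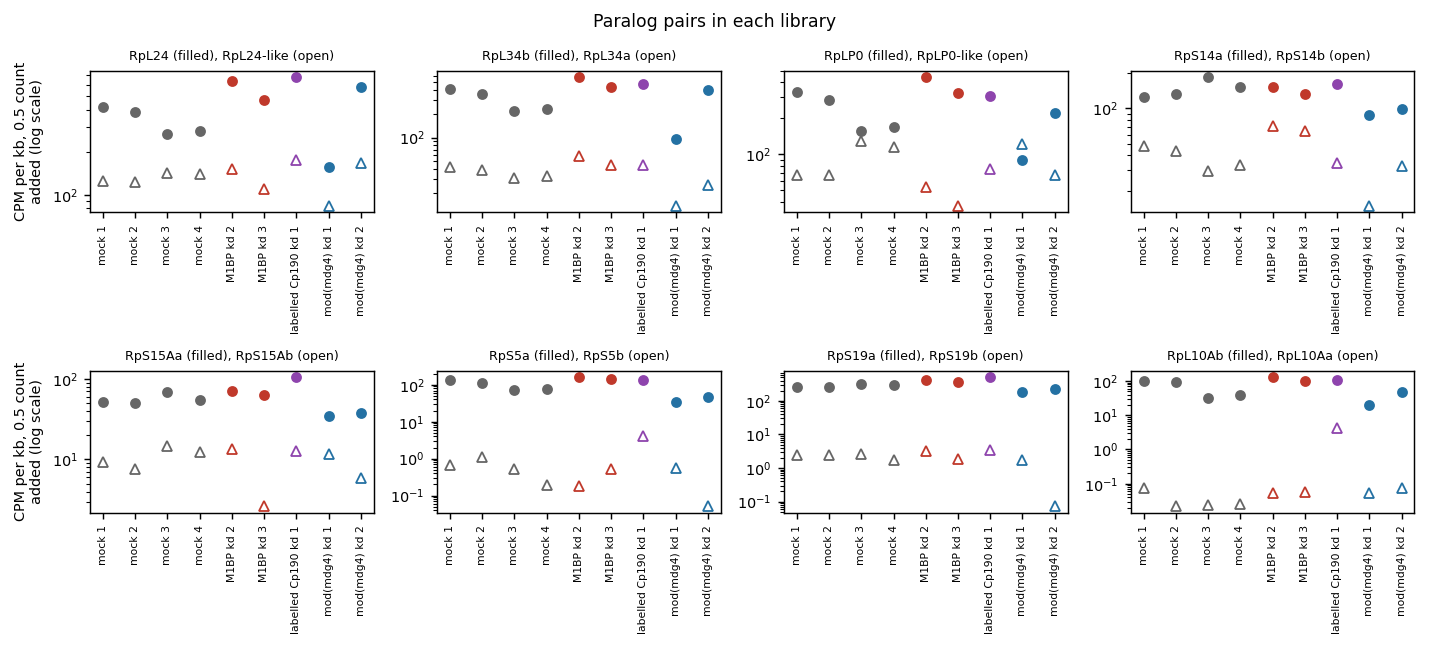
CPM per kb of gene span with 0.5 count added, on a log axis, for 8 paralog pairs in each library, with the copy of higher level filled and the other open and colours by group. *RpLP0* and *RpLP0-like* are close in mock replicates 3 and 4 and far apart after *M1BP* knockdown, while *RpS5b*, *RpS19b* and *RpL10Aa* stay far below their partners.

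Other genes of protein synthesis were counted in the same fits, and their counts are read beside the same shares of all genes. These were 16.5% higher and 11.5% lower with a median of -0.03 after *M1BP* knockdown, 0.32% and 0.408% with a median of 0.00 after *mod(mdg4)* knockdown, and 4.84% and 1.68% with a median of -0.02 in the direct comparison. Of 34 translation factor genes tested, 0 were higher and 2 lower after *M1BP* knockdown, with a median log2 fold change of 0.01. The 2 were *eIF3c* at -0.67 (adjusted p = 0.027) and *eEF1alpha2* at -0.89 (adjusted p = 0.043). After *mod(mdg4)* knockdown 0 were higher and 3 lower, with a median of -0.54. They were *Rack1*, for a scaffold protein bound to the small subunit, at -0.96 (adjusted p = 0.039), *eIF3h* at -0.81 (0.034) and *eIF3k* at -0.88 (0.045). In the direct comparison 4 were higher after *M1BP* knockdown and 0 lower.

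Of 19 ribosome assembly genes tested, 0 were higher and 10 lower after *M1BP* knockdown, with a median of -0.50. *RIOK2*, a kinase of late small subunit maturation, fell by 1.06 (adjusted p = 0.0024), from 72.7, 83.7, 94.4 and 93.2 CPM to 42.1 and 38.8 CPM. *mbm*, for a nucleolar protein, fell by 0.98 (adjusted p = 0.005), from 64.8, 66.9, 86.3 and 81.4 CPM to 39.9 and 34.4 CPM. In both genes the groups did not overlap. After *mod(mdg4)* knockdown 0 assembly genes were higher and 1 was lower, the GTPase gene *Non1* at -1.25 (adjusted p = 0.023), with a median of 0.14. The assembly and ribosomal protein genes thus had medians of opposite sign in both knockdowns, and the difference between the lists was not tested. Of 70 mitochondrial ribosomal protein genes tested, 2 were higher and 4 lower after *M1BP* knockdown, with a median of -0.06. After *mod(mdg4)* knockdown 0 passed the test in either direction, with a median of 0.26. Of 9 genes known as regulators of ribosomal protein genes or of growth, 2 were lower after *M1BP* knockdown, *M1BP* itself and *Max*, which encodes the partner of Myc, at -0.71 (adjusted p = 0.043). After *mod(mdg4)* knockdown 0 of these 9 passed.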

How the data were processed

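Per the file headers and the methods, the authors deposited raw counts per gene. They trimmed 50 bp single-end reads with cutadapt 2.7, aligned them with HISAT2 2.1.0 to dm6 and counted them over whole genes by strand with featureCounts 1.6.4. The authors' own comparisons used DESeq2 1.22.1. Symbols matched 17650 of 17771 gene IDs. Of 11 labelled libraries 9 were used, and 2 columns that share a heading were not used.

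Tests were run with edgeR 4.0.16 under R 4.3.3: the quasi-likelihood test after TMM scaling and the default filter on expression, with Benjamini-Hochberg adjustment over all genes tested and a threshold of 0.05. Each SE was derived as the log2 change over the square root of its F value. The fits were tested on simulated data. Paralog ratios add 0.5 count, and floors cover counting error only. Lists were described by counts and medians, without a test.

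Genes were named by rule: *RpLP1* and *RpL30*, paralogs, the 4 largest rises and falls per comparison among called members with a mean of at least 100 counts, the extremes of level, ubiquitin fusions, stalk genes, *RpS6* and *sta*, and the 4 members furthest outside mock in the library labelled *Cp190* knockdown. Others are named as examples after their values were seen. Members, lists and rules were chosen with earlier results of these data known. A search of promoter sequences was planned and not run, and motif matches on arm 2R are not shown. Alternatives were DESeq2 1.42.0, other scalings, no filter, other mock libraries, a replicate block, all libraries in 1 model and each library left out.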

Additional observations from a re-analysis of the deposited data

How the results depend on the processing

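No result turned its direction past the threshold under any alternative run. For members higher after *M1BP* knockdown, 19 in the main comparison, the count was 31 with DESeq2, 8 with all libraries in 1 model, and 6 to 35 when 1 library was left out. For members lower it was 0 against mock replicates 1 and 2 alone and 0 to 2 when 1 library was left out. After *mod(mdg4)* knockdown the count lower, 10 in the main comparison, was 6 by library size, 34 with DESeq2, 0 against mock replicates 1 and 2, 0 against replicates 3 and 4, and 0 to 16 with 1 library left out. The count higher was 1 with DESeq2 and 0 to 2 with 1 library left out. Between the knockdowns the count higher after *M1BP* knockdown, 42 in the main comparison, was 16 by library size and 17 to 51 with 1 library left out, and the count lower was 1 by library size, 1 without a filter and 0 to 2 with 1 library left out. The cause was not tested. Where leaving out a library left 1 in a group, that library was assumed to vary like the others. Library size as the only scaling moved the median of all genes to -0.13, 0.12 and -0.27 in these 3 comparisons, and the members stayed 0.41 above, 0.64 below (-0.64) and 1.07 above it.

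Deviations of same-numbered libraries correlated with r = -0.10 for *M1BP* and -0.05 for *mod(mdg4)* knockdown, so no pairing by replicate number was seen. Each value rests on only 2 shared replicate numbers and cannot exclude pairing. With the replicate block, 2 members were higher and 0 lower after *M1BP* knockdown, and 28 were lower and 1 higher after *mod(mdg4)* knockdown. After *M1BP* knockdown the block left *RpL27*, *RpL39*, *RpS30* and *RpLP0-like* at adjusted p of 0.080, 0.078, 0.052 and 0.051 and *RpS27A* at 0.48, while *RpL30* kept its call. No paired analysis was possible between the knockdowns because they share fewer than 2 replicate numbers. Shares and subunit medians moved by less than 1 SD with another denominator, scaling or filter. With 1 library left out, the share ran from 3.56% to 3.67% in mock, 3.79% to 4.90% after *M1BP* and 2.11% to 3.24% after *mod(mdg4)* knockdown.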
